A study of Mus musculus with 2 samples.

Results

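The core loci of the circadian clock were examined in a chromatin immunoprecipitation sequencing (ChIP-seq) profile of REV-ERBα from mouse T helper 17 (Th17) cells, the CD4 T cells that make interleukin-17. The 6 loci were those of Arntl, Clock, Cry1, Per1, Nr1d1 and Nr1d2. A listed peak belonged to a locus when its midpoint fell in a window of 50 to 170 kb fixed for that gene in mm9 coordinates, and 7 of the 8884 peaks in the authors' list did so. The windows covered 640 kb in all. They were set by position and not by the tags of any peak.

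The series holds 1 ChIP sample, taken with an antibody to REV-ERBα, and 1 input DNA sample. Both are labelled as wild-type primary Th17 cells in culture, and the labels name no treatment, time of day or age of the animals. The ChIP library had 6390234 tags, which are aligned reads. With 1 library of each kind there is no replicate check, and the intervals given here, all at 95%, cover counting error only. The peak list cannot show the marker genes of Th17 cells, so the labelled cell type was not checked.

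The clock is a loop of transcription factors that act on each other's genes. BMAL1, the product of Arntl, pairs with CLOCK and activates genes that carry an E-box element, among them the Per and Cry genes and Nr1d1 and Nr1d2. PER and CRY proteins then inhibit BMAL1 and CLOCK. REV-ERBα (Nr1d1) and REV-ERBβ (Nr1d2) are nuclear receptors that repress Arntl through the ROR element, a site they share with the activating ROR receptors.

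Selected promoter stretches are shown here because the arms of the loop meet through ROR elements and E-boxes. They are a repeated stretch of the Arntl promoter, of which 1 copy runs into the letters of a ROR element, and the E-box letters of Cry1 and Per1. The last is the half-site AGGTCA at Nr1d2, a locus without a peak, where the longer letters searched for the ROR element were not found. Matching half-sites of Clock and Per1 are not printed. The sequences are RefSeq promoters of build GRCm38.p6, each running from 250 bases before a listed gene start to 50 bases after it. They share no coordinates with the mm9 peaks, so no peak was placed on them. All 6 genes matched the table, with 10 promoters between them. Capitals mark the letters searched, and each line is 30 bases of the gene's own strand:
Arntl, chr7:113207491-113207520, plus strand: gattggtcggAAAGTAGGTtagtggtgcga
Arntl, chr7:113207527-113207556, plus strand: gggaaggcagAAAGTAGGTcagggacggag
Cry1, chr10:85185097-85185126, minus strand: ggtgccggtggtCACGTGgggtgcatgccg
Per1, chr11:69098771-69098800, plus strand: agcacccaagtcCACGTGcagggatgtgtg
Nr1d2, chr14:18239166-18239195, minus strand: gattggaagaagAGGTCAggaccgctcgtt

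The ROR element was searched on both strands by its last letters, TAGGTCA or TGGGTCA. Arntl was the only one of the 6 genes with such a match in these promoters, 30 bases past the second of its 2 listed starts. That is 1 of the 10 promoters of these genes, and 6.45% of all 32851 promoters held one. The shorter half-site AGGTCA, which lies within TAGGTCA, was found for Arntl, Clock, Per1 and Nr1d2. It was in 4 of the 10 promoters and in 16.3% of all promoters. None of the 6 genes had a pair of AGGTCA half-sites 2 bases apart, an arrangement found in 3 promoters in all.

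Both Arntl lines carry the letters AAAGTAGGT, a stretch searched only after the Arntl promoter had been read. The copies began 36 bases apart, the first 10 bases before the second listed start and the other 26 bases past it. AAAGTAGGT was present in 0.183% of all promoters, and 3 promoters held at least 2 copies. The E-box letters CACGTG were found for Cry1, 60 bases before its start, and for Per1, 166 bases before its first start. They were in 2 of the 10 promoters and in 7.15% of all promoters.

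Of 22 other genes of the clock and its outputs, 15 had promoters in the table, 20 in all. Only Nfil3, which encodes a repressor of the clock's output genes, held TAGGTCA or TGGGTCA. That is 1 of the 20 promoters, near the 6.45% of all promoters. The E-box was found for Bhlhe41, Ciart and Tef, in 4 of the 20 promoters, against 7.15% of all promoters. A match describes letters and does not show a bound site.

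The promoter of Nr1d1 is given because the Nr1d1 window, as fixed, held the most ChIP tags of the 6. None of the searched motifs was found in its 300 bases. Its 250 bases before the start, on the minus strand of GRCm38.p6, read:
Nr1d1, chr11:98775378-98775627, minus strand: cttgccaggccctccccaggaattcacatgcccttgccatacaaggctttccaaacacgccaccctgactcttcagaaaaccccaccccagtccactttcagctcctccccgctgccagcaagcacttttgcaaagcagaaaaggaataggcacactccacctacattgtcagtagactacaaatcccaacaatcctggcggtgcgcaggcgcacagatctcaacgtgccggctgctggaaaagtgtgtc

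REV-ERBα peaks were listed in 4 of the 6 windows. The windows of Arntl, Per1 and Nr1d1 held 2 peaks each and that of Cry1 held 1, while those of Clock and Nr1d2 held none. By summed tags the Nr1d1 window came first with 55 (interval 41.4 to 71.6), Cry1 and Per1 followed with 27 each (17.8 to 39.3) and Arntl had 18 (10.7 to 28.4). The interval of Nr1d1 lay above those of the other 3 loci with peaks, which overlapped one another. This order depends on the fixed window edges. A peak of 32 tags lay 3.07 kb outside the Per1 window, and counting it would put Per1 above Nr1d1. All tag counts, scores and folds of a peak are the authors' own values. The fold is the ratio of ChIP tags to input tags, after the authors scaled the input to the depth of the ChIP library, and a listed peak had to reach 4-fold.

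**Figure D1:**
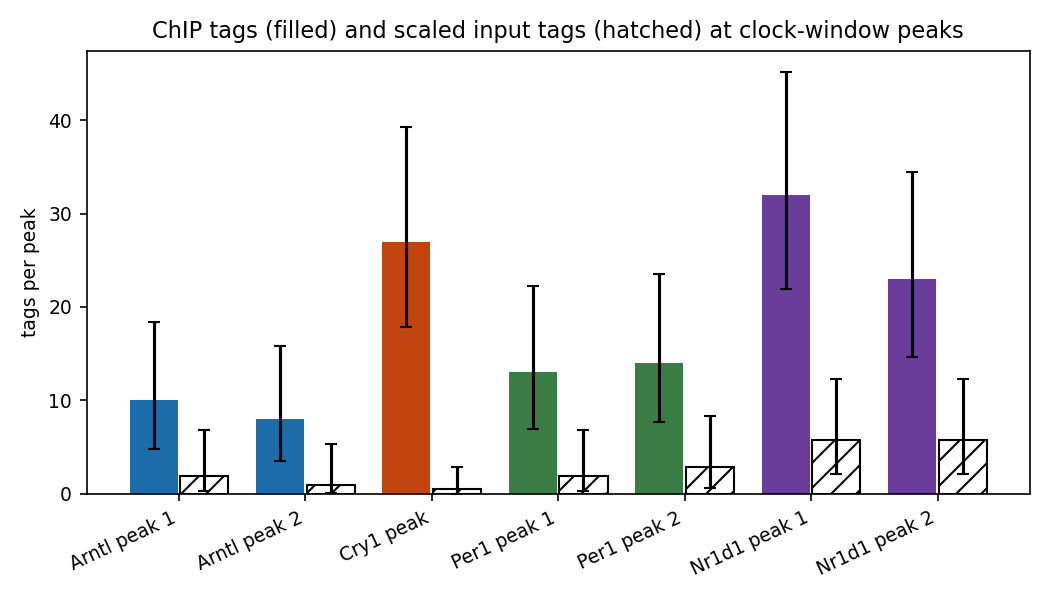
ChIP tags (filled bars) and scaled input tags (hatched bars) per peak for the 7 peaks in the clock windows, with exact Poisson 95% intervals of the counts, or, for the Cry1 input, the 3 tags that a count of 0 allows. The Nr1d1 peaks, with 32 and 23 tags, stand on the highest input, and the Cry1 peak, with 27 tags, has input at the lowest listed value.

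The Nr1d1 locus, which encodes the immunoprecipitated receptor itself, held the strongest of the 7 peaks by tags. The window ran from 98610000 to 98660000 on chromosome 11. Its first peak, at 98637180 to 98637486, had 32 tags (interval 21.9 to 45.2) and a score of 30, the score being the caller's own value for a peak. Only 4.21% of listed peaks had more tags, and it ranked 29th of the 697 peaks on chromosome 11. The other peak, at 98650029 to 98650335, had 23 tags (14.6 to 34.5) and a score of 20, and 15.3% of the list had more tags. The ratio of the counts, 1.39, had an interval of 0.789 to 2.49, so that their order is not resolved.

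Input was high at both Nr1d1 peaks. Each had 5.7 scaled input tags, a level that 1.26% of listed peaks reached. The required 4-fold keeps that level out of the list at lower tag counts. Among listed peaks with the same tags, 9 of 63 had input at least as high at 32 tags and 8 of 207 at 23 tags. With this input the stronger peak was 5.64-fold over input (interval 2.33 to 16.5), and 82.9% of the list had a higher fold. The weaker was 4.06-fold (1.61 to 12.2), just past the required 4-fold, which bounds the folds of all listed peaks from below. Against the surrounding 10000 bp the folds were 5.83 and 9.11. The part of the raised input in these peaks' tags was not tested.

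The Cry1 peak had a tag count between those of the Nr1d1 peaks, with input at the lowest value of the list. Cry1 encodes a cryptochrome, a repressor of BMAL1 and CLOCK, and its window ran from 84570000 to 84670000 on chromosome 10. Its peak, from 84624546 to 84624852, carried 27 tags (interval 17.8 to 39.3) and a score of 21, and 8.99% of the list had more tags. Its tag count was not resolved from that of the stronger Nr1d1 peak (ratio 1.19, interval 0.688 to 2.06). Input was listed at 0.5, as for 16.8% of the list, taken here to mean that no input tag fell there. A count of 0 allows up to 3 input tags, or 2.84 scaled tags, which overlaps the interval of each Nr1d1 peak, 2.08 to 12.3. The listed fold of 57.1 rests on the lowest value. Against 3 input tags the peak was at least 9.52-fold higher than input, and against the 2-sided limit the bound is lower. Both leave out the counting error of its own 27 tags. Of the 91 listed peaks with 27 tags, 8 had input at the lowest value. Enrichment over the local region was 10.7-fold, the highest of the 7.

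**Figure D2:**
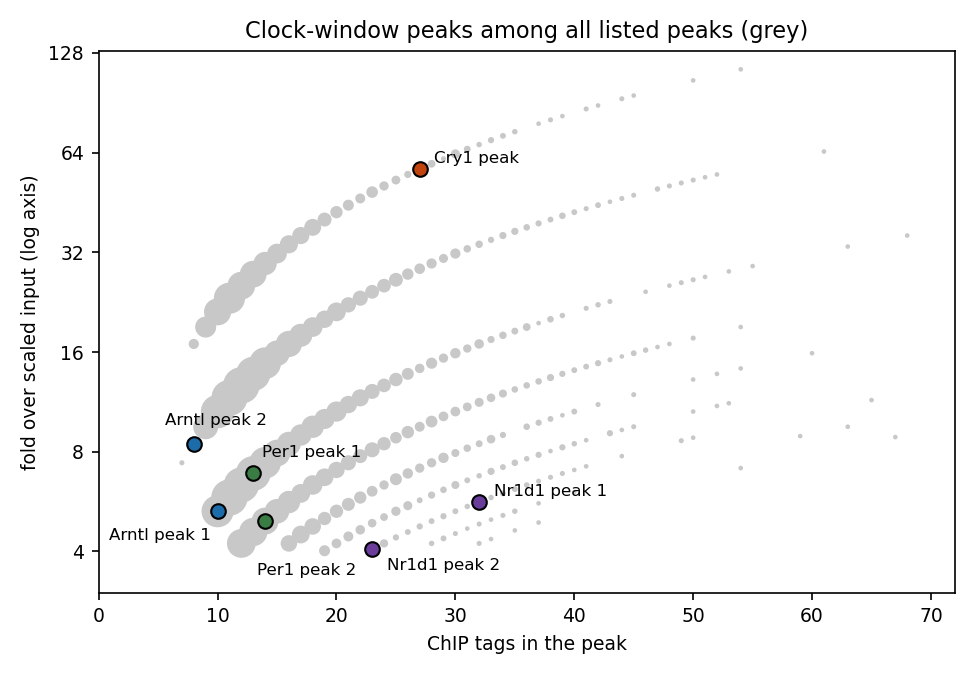
Fold over scaled input (log axis) against ChIP tags for the listed peaks, with grey points growing with the number of peaks at a position and the strongest listed peak off scale. Each curve of grey points is 1 number of input tags. The Cry1 peak lies on the curve without input tags at 57.1-fold, and the other 6 members lie between 4.06- and 8.46-fold.

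The Arntl peaks had the fewest tags of the 7, though not the lowest folds. Arntl encodes BMAL1 and is the best known target of REV-ERB repression. Its window ran from 120320000 to 120480000 on chromosome 7. The first peak, at 120327412 to 120327718, had 10 tags (interval 4.80 to 18.4), a score of 10 and 1.9 scaled input tags, and was 5.29-fold over input (1.13 to 49.7). The peak at 120350523 to 120350829 had 8 tags (3.45 to 15.8), a score of 9, which was the lowest the caller accepted, and 0.9 scaled input tags. It was 8.46-fold over input (1.13 to 376), an interval that rests on 1 input tag. Respectively 89.4% and 99.4% of the list had more tags.

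The first Arntl peak had fewer tags than the strongest clock peak, beyond the counting error of that pair and before input is considered. The first Nr1d1 peak had 3.20 times the tags of the first Arntl peak (interval 1.53 to 7.30), and the Cry1 peak had 2.70 times as many (1.27 to 6.25). From Per1 the Arntl counts were not resolved: the Per1 peak of 14 tags had 1.75 times the tags of the Arntl peak of 8 (0.685 to 4.81). These intervals compare counts within 1 library and take no account of input or of the choice of pairs. Scaled input was 5.7 tags at the first Nr1d1 peak and 1.9 at the first Arntl peak. Their folds over input, 5.64 (interval 2.33 to 16.5) and 5.29 (1.13 to 49.7), were not resolved. The folds over the local region were 8.80 and 6.67 at the Arntl peaks, the former above 60.9% of the list.

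At the Per1 locus the peaks lay at the edge of the window. Per1 encodes a period protein, the partner of the cryptochromes in the repressing arm. Its window ran from 68890000 to 68940000 on chromosome 11. One peak, from 68937802 to 68938108, carried 13 tags (interval 6.92 to 22.2) with a score of 10. The next, from 68939192 to 68939498, carried 14 (7.65 to 23.5) with a score of 11. Scaled input was 1.9 and 2.8 tags, and the folds over input were 6.88 (1.56 to 62.8) and 4.94 (1.38 to 26.8). Over the local region they were 4.12- and 4.72-fold, and 0.833% and 6.54% of the list had lower local folds. Each of these peaks lies in the local region of the other.

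The midpoints of the Per1 peaks lay 2.04 and 0.655 kb inside the right edge, so that their assignment to Per1 depends on where the window ends. A stronger peak of 32 tags, 16.9-fold over input, lay 3.07 kb outside the left edge, at 68886777 to 68887083. It equalled the stronger Nr1d1 peak in tags and was not counted as a Per1 peak. On the other side the nearest peak lay 46.3 kb beyond the edge and had 17 tags.

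No peak was listed in the windows of Clock and Nr1d2. Clock encodes the partner of BMAL1, and its window ran from 76600000 to 76770000 on chromosome 5. The nearest listed peaks lay 537 kb to the left of it, with 13 tags, and 635 kb to the right, with 12 tags, a gap of 1.34 Mb. Nr1d2 encodes REV-ERBβ, and its window ran from 19000000 to 19110000 on chromosome 14. The nearest peaks, with 12 and 14 tags, lay 1.91 Mb to the left and 543 kb to the right, a gap of 2.56 Mb.

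Such gaps are few in number but take up much of the distance in this list. Of its 8864 gaps, 4.9% were at least as long as that around Clock and 2.43% as that around Nr1d2. Gaps at least as long as that around Clock made up 57.9% of the distance between first and last peaks of the chromosomes, and gaps at least as long as that around Nr1d2 made up 41.8%. All listed peaks had a score of at least 9, the caller's threshold, though their tag counts went down to 7, and had passed both filters. Weaker sites are not in the list, so a window without a listed peak is not shown to be unbound.

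**Figure D3:**
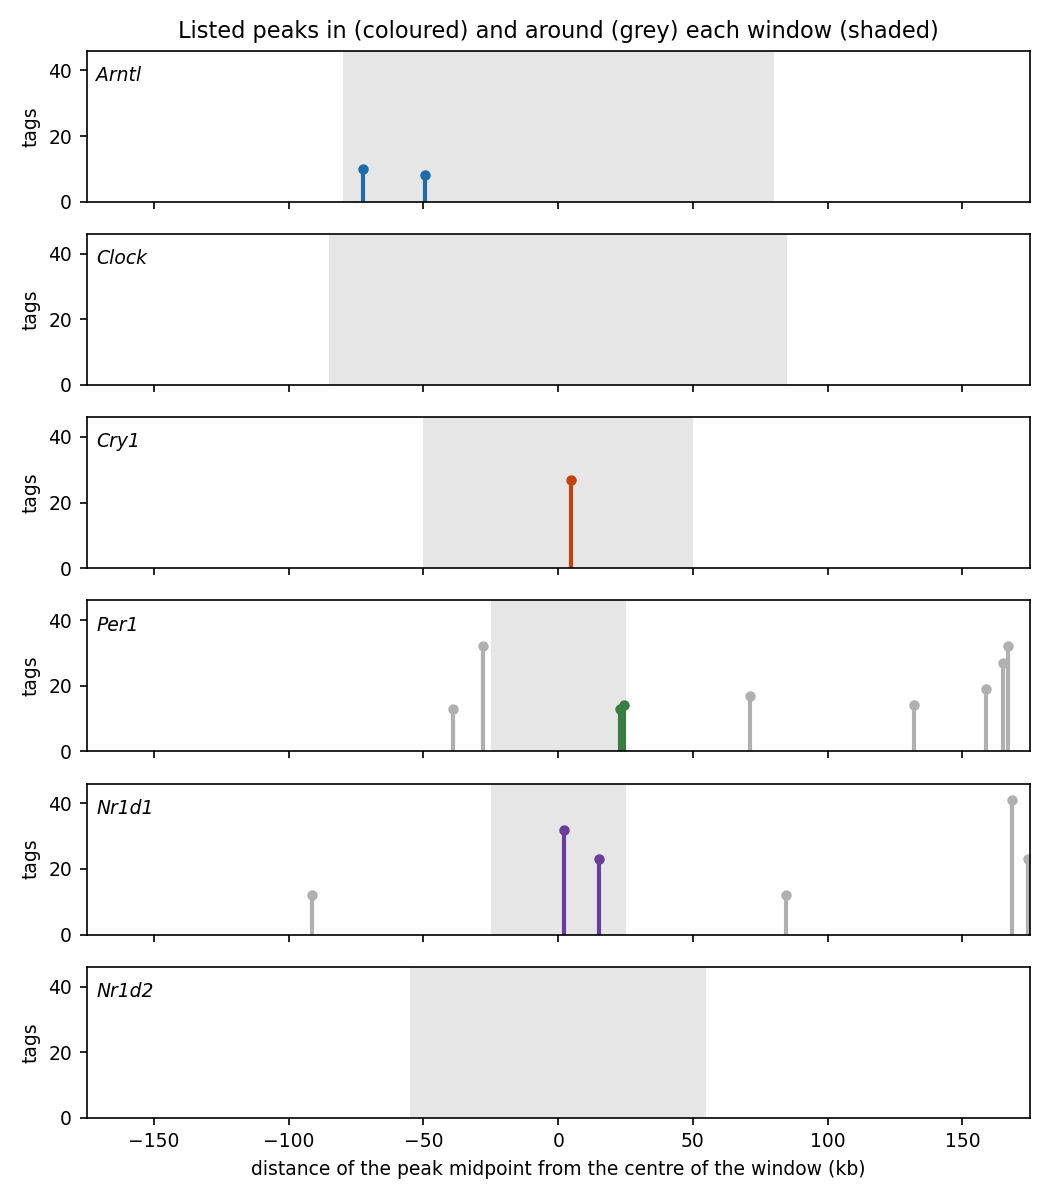
Tags of each listed peak against the distance of its midpoint from the centre of the window (kb), for the 6 windows (shaded), with peaks inside in colour and those outside in grey. The Per1 peaks sit at the right edge of their window with a peak of 32 tags just beyond the left edge, and no peak is drawn for Clock or Nr1d2.

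Spacing differed from locus to locus. The Per1 peaks were 1390 bp apart, and 2.69% of the gaps between neighbouring peaks in the list were that short or shorter. The Nr1d1 peaks were 12.8 kb apart and the Arntl peaks 23.1 kb. Beyond each other, the Arntl peaks had no listed neighbour for 851 kb to the left and 863 kb to the right. The Cry1 peak stood alone, 245 kb from its nearest neighbour, and 5.67% of listed peaks had a nearest neighbour at that distance or farther. The Per1 peaks were the only members with a neighbour within 10 kb, 2 of 7 (28.6%), against 33.7% of the list. Each of the 2 is the neighbour of the other.

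Windows without peaks were the rule in the list, as tiles of the same length along every chromosome showed. At least 1 peak was found in 25.7% of tiles of 160 kb (the length for Arntl), 26.4% of 170 kb (Clock), 19.3% of 100 kb (Cry1), 11.9% of 50 kb (Per1 and Nr1d1) and 20.3% of 110 kb (Nr1d2). At least 2 peaks were found in 13.7% of tiles of the Arntl length and in 3.84% of those of 50 kb. Over the 6 windows the density was 10.9 peaks per Mb (interval 4.4 to 22.5), against 3.50 over the list. It depends on peaks near the edges, since narrowing each window by 10 kb left 3 peaks. Chromosome 11, which holds the Per1 and Nr1d1 windows, had 5.87 per Mb. The tiles include stretches without genes and without mappable sequence, and the windows were chosen around genes. The shares and densities therefore describe the list and are no test of the clock loci.

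**Figure D4:**
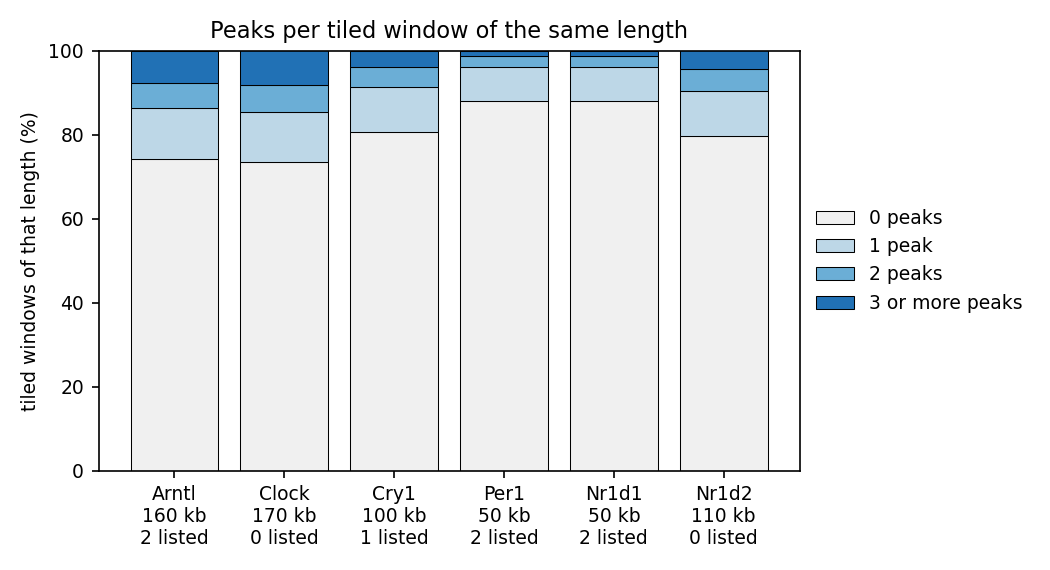
Share of tiled windows (%) with 0, 1, 2 or 3 or more listed peaks, for tiles of the length of each clock window, with the number of peaks listed in that window under each bar. At 50 kb, the length for Per1 and Nr1d1 with 2 peaks each, 88.1% of tiles held no peak.

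As a group the 7 peaks had tag counts near the middle of the list. Their median was 14 tags, against 15 in the list, and their median score was 11 against 13. The list's median tag count was reached by 3 of 7 (42.9%), as by 51.3% of all peaks. Their median fold over input was 5.64, against 10.6 in the list, and over the local region 6.67 against 7.78. At least 8-fold enrichment over input was listed for 2 of 7, the Cry1 peak and the weaker Arntl peak (28.6%), against 61.5% of the list. With 7 peaks these shares are descriptions, and their difference from the list was not tested. The 7 peaks held 127 tags, 0.0788% of all tags in peaks.

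Other genes adjoin these loci. In the RefSeq gene table of GRCm38.p6, Nr1d1 overlaps Thra, the gene of a thyroid hormone receptor, and is followed by Msl1. Per1 lies between Vamp2 and Hes7, Cry1 between Mterf2 and Btbd11, Arntl between Rassf10 and Btbd10, and Clock between Tmem165 and Pdcl2. Nr1d2 is followed by Rpl15. Gene models in mm9 were not used here, so whether a peak lies in an exon, an intron or a promoter, and whether it belongs to the clock gene or a neighbour, is not given.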

How the data were processed

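The peak list of 1 REV-ERBα ChIP library was used, and the input library entered through its values. Per the submitters' processing notes, CASAVA 1.8.2, Bowtie and HOMER were used with build mm9. Per the file headers, the authors called peaks with HOMER findPeaks at a false discovery rate of 0.001 and a tag threshold of 9, which all scores met but not all total tags. They then required 4-fold over input and over the surrounding 10000 bp, each at a Poisson p-value of 1e-04. Total tags are counts deposited without normalization. Input tags are a signal the authors scaled to the ChIP depth. Folds are deposited ratios, and the score is the caller's deposited value. The deposited p-values were not used.

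Peaks were assigned by midpoint in Python 3.11.15 with pandas 2.3.3. Intervals came from scipy 1.17.1 and figures from matplotlib 3.10.9. Input tag numbers were read from tags over fold, in steps of 0.945 scaled tags. Count intervals are exact Poisson, except the 1-sided limit of 3 tags for the Cry1 input, and ratio and fold intervals exact binomial. No test between groups was possible. Window counting, motif search and intervals were tested on simulated data. Tiles ran from the first peak of each chromosome. Every peak in the windows is named. The members and lists were chosen with earlier results of these data known. Alternatives changed the peaks, window edges, distances and motif.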

Additional observations from a re-analysis of the deposited data

How the results depend on the processing

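All 36 alternatives over 6 results were computed, and in 22 of them counts stayed within 1.5 times the reported value or the median fold within the counting interval of the middle peak. Restricting the list to peaks at least 8-fold over input left 2 peaks in 2 windows with 35 tags, a median fold of 32.8 and 0 peaks with a neighbour within 10 kb. Keeping those with at least the list's median tags left 3 peaks in 2 windows with 82 tags and 0 with a neighbour. The lower counts follow from having fewer peaks. The median fold of 32.8 follows from selecting on fold, and 1 of its 2 peaks is the Cry1 peak, listed at the lowest input. Narrowing each window by 10 kb left 3 peaks with 67 tags and 0 with a neighbour, since the Per1 peaks, the first Arntl peak and the weaker Nr1d1 peak lie within 10 kb of an edge. With 20 kb in place of 10 kb, 4 peaks had a neighbour. The half-site AGGTCA alone was found for 4 genes against 1 with the 7-letter core. The letters AAAGTAGGT were added after the Arntl promoter had been seen. Leaving out replicates was not possible with 1 library. At this depth, sites of a few tags stay under the caller's threshold, a score of 9.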

Other observations

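Widening every window by 50 kb on each side added 3 peaks, all at Per1, with 13 to 32 tags, and none at the other 5 loci. With them Per1 held more tags than Nr1d1, so the order of the windows by tags changed. The windows of Clock and Nr1d2 stayed without a peak, and the total came to 10 peaks with 189 tags.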
